A study of Mus musculus with 550 samples.

Results

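The jejunal response to dimethyl fumarate (DMF) at 179.2 mg/kg was compared between 6 h and 12 h after a single dose. The value for each gene is a difference of differences in log2 units, DMF 179.2 minus vehicle at 12 h less DMF 179.2 minus vehicle at 6 h, and is called the time difference here. A negative time difference means that the effect was lower at 12 h than at 6 h, and a positive one that it was higher. The arrays were chosen by their titles and number 29 of 550 in the series. They are 8 DMF 179.2 and 8 vehicle arrays at 6 h, and 8 DMF 179.2 and 5 vehicle arrays at 12 h. Hoxb6 and Hoxb9 mark the distal intestine, and jejunum arrays on which they averaged over 6 log2 were left out. That removed 4 of 76 jejunum arrays, namely 12 h DMF 100 replicate 15 at 6.27 and 12 h vehicle replicates 5, 6 and 7 at 7.44, 7.81 and 7.90. The highest array kept was 12 h vehicle replicate 3 at 3.99.

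The study dosed C57Bl/6 mice once and measured total RNA of whole organs on 3' expression arrays, 1 array per mouse and organ. The jejunum groups used here received DMF 179.2, DMF 100, monoethyl fumarate (MEF) salts at 79.2 mg/kg, DMF 100 plus MEF salts, the hydroxypropyl methylcellulose vehicle, or no dose (naive, at 12 h). All 72 jejunum arrays kept share 1 estimate of the spread in the fit. In RNA of a whole organ, fewer cells of a type and less RNA per cell cannot be told apart.

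DMF is an electrophile that modifies cysteines of KEAP1, the adaptor that marks the transcription factor NRF2 for degradation. NRF2 that escapes this pairs with small Maf proteins on antioxidant response elements and drives genes for glutathione synthesis, carbonyl and quinone reduction, conjugation and efflux. The small intestine is among the tissues known for strong expression of such genes, as the site where ingested electrophiles are first met.

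Enterocyte markers (5 measured) averaged 13.19 to 13.65 log2 over all 29 arrays and Gata4, a regulator of the proximal intestine, lay between 7.85 and 10.21. The proximal intestine markers as a list (4 measured, Gata4 among them) averaged lower, from 5.15 to 7.65. Markers of the ileum were also high on many arrays, which goes against a purely jejunal label. The ileal bile acid genes Fabp6 and Slc10a2 averaged anywhere from 4.41 to 10.76 with DMF 179.2 and from 4.71 to 11.79 with vehicle at 6 h, and from 4.68 to 11.53 with DMF 179.2 and from 3.35 to 11.54 with vehicle at 12 h. B cell markers (3 of 4 measured) were uneven between the groups. Their mean ran from 4.61 to 8.06 with DMF 179.2 and from 3.92 to 7.84 with vehicle at 6 h, and from 3.62 to 4.20 with DMF 179.2 and from 3.79 to 7.82 with vehicle at 12 h. Every 12 h DMF 179.2 array was therefore low in B cell RNA while the other 3 groups spanned low and high arrays, and the part of this in the results was not tested beyond leaving arrays out. Place was counted along the animal number in runs of 12, which the labels do not give. DMF 179.2 arrays lay at places 5 to 12 at both times, 6 h vehicle arrays at places 1 to 8, and the 12 h vehicle arrays kept at places 1 to 4 and 8.

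The time difference passed the test in 145 of 17097 genes (0.848%), with 88 negative (0.515%) and 57 positive (0.333%). A call here is an adjusted p below 0.05 in limma's moderated test after Benjamini-Hochberg adjustment over all genes, and 2006 genes had an unadjusted p below 0.05. DMF 179.2 against vehicle gave 1533 calls at 6 h (8.97%), of which 1009 were higher (5.9%) and 524 lower (3.06%), and 270 at 12 h (1.58%), of which 205 were higher (1.2%) and 65 lower (0.38%). After a further quantile normalization the 6 h split was 675 higher and 851 lower. The median time difference over all genes was 0.00.

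Most negative time differences belonged to genes raised at 6 h. Of the 88, 63 were called higher with DMF 179.2 at 6 h and not called at 12 h, 9 were called higher at both times and 2 were called higher at 6 h and lower at 12 h. Of the 57 positive ones, 33 were called lower at 6 h and not called at 12 h, 17 were not called at 6 h and called higher at 12 h, and 2 were lower at 6 h and higher at 12 h. Another 5 negative genes were called lower at 12 h alone, and 9 negative and 5 positive genes were called at neither time. Called or not, the effects at 6 h and 12 h had opposite signs in 66 of the 88 negative and 50 of the 57 positive genes. The effect at each time enters the time difference, so these counts describe what it is made of. The changes were mostly small. The median size was 0.53 log2 units among negative and 0.39 among positive genes, and 10 genes changed by over 1 log2 unit, all of them negative.

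**Figure D1:**
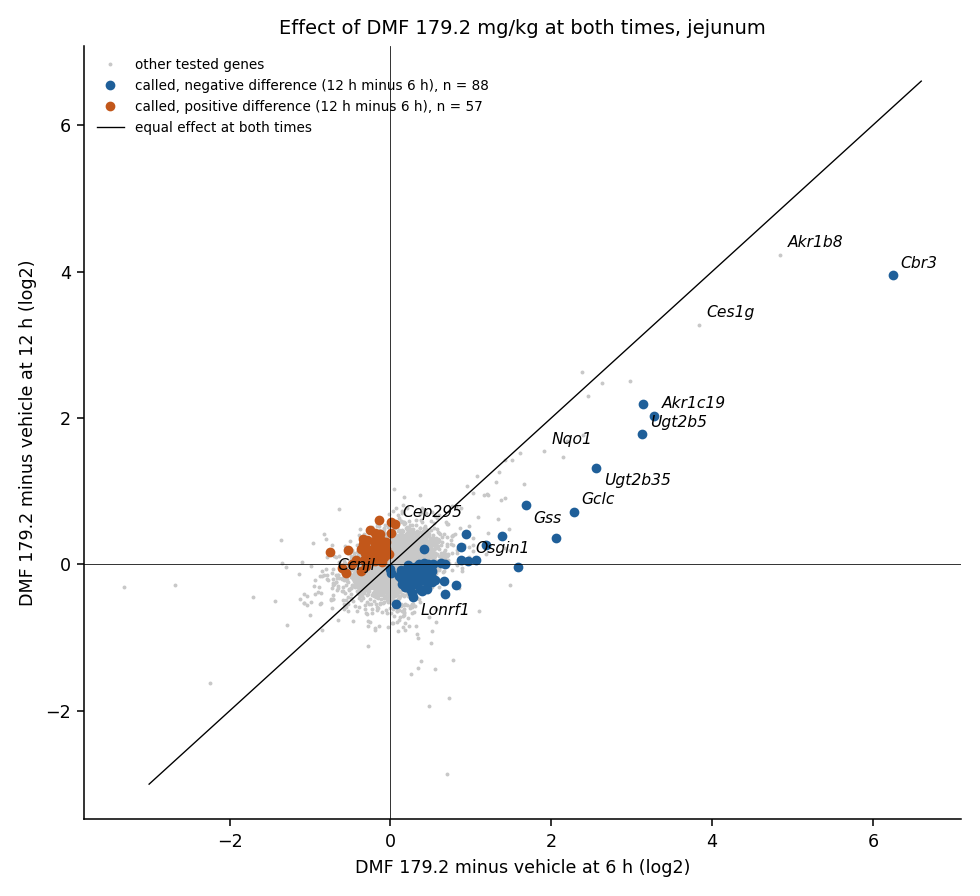
Effect of DMF 179.2 mg/kg against vehicle in the jejunum at 6 h (horizontal axis, log2) and at 12 h (vertical axis, log2), 1 point per gene. Genes called in the time difference are blue (negative, 88) or orange (positive, 57), the others grey. Points under the diagonal had a lower effect at 12 h. Cbr3, Gclc and the Ugt2b genes lie far under it, while Akr1b8, Ces1g and Nqo1, which were not called, lie closer to it.

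Of all genes tested, Gclc had the smallest adjusted p for the time difference. It encodes the catalytic subunit of glutamate-cysteine ligase, the first and limiting step of glutathione synthesis, and Gss encodes glutathione synthetase, the final step. Both were called above vehicle at both times, with a smaller effect at 12 h.

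At 6 h the lowest, median and highest Gclc levels (chromosome 9) were 9.81, 10.15 and 10.55 log2 with DMF 179.2, against 7.47, 7.91 and 8.28 with vehicle. At 12 h they were 8.10, 8.32 and 8.51 with DMF 179.2, against single values of 7.88, 7.70, 7.41, 7.40 and 7.59 with vehicle. All DMF 179.2 arrays were above all vehicle arrays at both times, by a wide gap at 6 h and a narrow one at 12 h. The effect was 2.28 ± 0.13 log2 (SE, 4.85-fold) at 6 h and 0.71 ± 0.15 (1.64-fold) at 12 h. The time difference of -1.56 ± 0.20 had an adjusted p of 2.25e-06 in limma and passed under all 16 alternatives, at -1.64 to -1.40.

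Gss (chromosome 2) lay at 9.47, 9.70 and 9.98 with DMF 179.2 and at 7.86, 8.06 and 8.18 with vehicle at 6 h. Its 12 h level lay at 8.28, 8.50 and 8.80 with DMF 179.2, and its vehicle values were 7.66, 7.67, 7.41, 7.90 and 7.96. The groups did not overlap at either time. Its effect was 1.68 at 6 h and 0.81 at 12 h, and the time difference of -0.87 ± 0.16 (adjusted p = 0.00213 in limma) also passed under all 16 alternatives. Gclm, the modifier subunit of the ligase, had an effect of 0.98 at 6 h and 0.24 at 12 h, and its time difference of -0.73 ± 0.20 just missed the threshold (adjusted p = 0.0519 in limma). Of the 17 genes measured on the glutathione and thioredoxin list, 12 rose at 6 h and 9 at 12 h, beside 5.9% and 1.2% of all genes. Gss was the 1 gene of the list called in the time difference, beside 0.848% of all genes. The list median was -0.08, beside 0.00 for all genes.

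Cbr3 (chromosome 16), a carbonyl reductase and a known NRF2 target, was at 9.79, 10.50 and 10.85 with DMF 179.2 at 6 h, against 3.87, 4.06 and 4.89 with vehicle. By 12 h it was at 7.10, 7.82 and 9.02 with DMF 179.2, against 3.88, 3.96, 3.89, 3.86 and 4.18 with vehicle. The dosed arrays stood clear of the vehicle arrays at both times, and the 12 h dosed arrays were more spread than the 6 h ones. The effect was 6.25 ± 0.33 (76.1-fold) at 6 h and 3.95 ± 0.37 (15.4-fold) at 12 h, so the time difference was -2.30 ± 0.50 (adjusted p = 0.0104 in limma), the most negative of all called genes. It passed under 15 of 16 alternatives and ranged from -2.41 to -1.96.

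Akr1c19 (chromosome 13), an aldo-keto reductase, lay at 11.92, 12.20 and 12.55 with DMF 179.2 at 6 h, against 7.90, 9.03 and 9.62 with vehicle. The 12 h level lay at 10.64, 10.85 and 11.12 with DMF 179.2, and at 9.03, 9.0, 8.38, 8.29 and 9.50 with vehicle. All dosed arrays were above all vehicle arrays at both times. The effects were 3.28 and 2.03, and the time difference was -1.24 ± 0.31 (adjusted p = 0.0261 in limma). It was not called without 12 h vehicle replicate 1, 2 or 8, with naive in place of vehicle, or without the arrays high in B cell markers (adjusted p up to 0.228 in limma over these alternatives). On the list of aldo-keto reductases, carbonyl reductases and aldehyde dehydrogenases (15 measured), 9 rose at 6 h and 8 at 12 h. The shares of all genes were 5.9% and 1.2%. Cbr3 and Akr1c19 were the 2 called in the time difference, beside 0.848% of all genes. The list median was -0.22.

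Akr1b8 (chromosome 6), an aldo-keto reductase with the highest 12 h effect of all genes tested, was at 9.76, 10.63 and 10.90 with DMF 179.2 and at 4.88, 5.70 and 6.58 with vehicle at 6 h. At 12 h it was at 8.57, 9.15 and 9.96 with DMF 179.2 and at 5.49, 5.76, 4.03, 4.05 and 5.27 with vehicle. Its effect of 4.85 at 6 h and 4.23 at 12 h gave a time difference of -0.62 ± 0.39 that did not pass (adjusted p = 0.584 in limma). With naive in place of 12 h vehicle it was -1.40 and called (adjusted p = 0.0243 in limma), under 1 of 16 alternatives. Whether the Akr1b8 time difference differed from that of Cbr3 was not tested.

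Promoters of 4 called genes are shown, 3 with and 1 without a core motif of the antioxidant response element near the start site. These 4 do not give the share among called genes, which is given below. The motif searched was TGACNNNGC on either strand, marked in capitals where found, in windows of 300 bases (250 before and 50 after the start) from RefSeq on GRCm38.p6. It occurs in 12.4% of the 32851 windows of that table. A match is a description of the sequence and not a site of binding. Akr1c19 (chr13:4233490-4233789, plus strand) has 1 match beginning at base 258 of its window, and Txnrd1 (chr10:82858956-82859255, plus strand, 1 of its 3 windows) has 1 at base 159. Mafg (chr11:120633498-120633797, minus strand) has 1 at base 29, and Cbr3 (chr16:93682969-93683268, plus strand) has no match in this window.
Akr1c19: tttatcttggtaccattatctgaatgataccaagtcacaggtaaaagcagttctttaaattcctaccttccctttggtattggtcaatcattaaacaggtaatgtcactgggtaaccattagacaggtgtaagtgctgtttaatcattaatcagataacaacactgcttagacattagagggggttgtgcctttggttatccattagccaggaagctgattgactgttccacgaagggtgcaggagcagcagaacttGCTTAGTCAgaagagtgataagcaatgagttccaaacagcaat
Txnrd1: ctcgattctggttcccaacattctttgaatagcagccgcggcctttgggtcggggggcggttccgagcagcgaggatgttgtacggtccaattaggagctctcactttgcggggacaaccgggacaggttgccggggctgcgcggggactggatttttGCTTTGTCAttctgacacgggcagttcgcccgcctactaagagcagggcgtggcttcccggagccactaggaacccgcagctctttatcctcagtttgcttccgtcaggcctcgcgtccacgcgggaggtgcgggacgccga
Mafg: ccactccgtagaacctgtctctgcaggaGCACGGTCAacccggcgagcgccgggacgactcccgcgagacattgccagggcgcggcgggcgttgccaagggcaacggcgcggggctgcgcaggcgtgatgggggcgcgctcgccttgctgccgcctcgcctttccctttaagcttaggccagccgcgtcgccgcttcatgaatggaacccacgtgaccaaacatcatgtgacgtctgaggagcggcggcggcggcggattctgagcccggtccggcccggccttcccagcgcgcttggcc
Cbr3: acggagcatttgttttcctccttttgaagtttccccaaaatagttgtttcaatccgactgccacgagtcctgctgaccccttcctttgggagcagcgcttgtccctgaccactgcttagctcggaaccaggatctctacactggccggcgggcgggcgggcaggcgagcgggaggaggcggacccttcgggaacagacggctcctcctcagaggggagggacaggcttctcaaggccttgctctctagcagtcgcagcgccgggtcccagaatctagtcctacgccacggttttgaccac
The motif lay in a window of 13 of 72 negative called genes with a window (18.1%), 7 of 50 positive ones (14%) and 2178 of 13514 tested genes (16.1%), which are like shares. Among the NRF2 targets 6 of 20 had it (30%). Of the 15 most negative genes, 11 had a window and 2 of these had the motif (18.2%).

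Ugt2b5 and Ugt2b35 (both on chromosome 5) encode UDP-glucuronosyltransferases, which attach glucuronic acid to drugs and steroids. Their family members are alike in sequence, and probes that read more than 1 of them were not tested for. Ugt2b5 was at 9.99, 10.52 and 11.24 with DMF 179.2 and at 6.84, 7.52 and 8.10 with vehicle at 6 h. Its 12 h level was at 8.92, 9.40 and 10.07 with DMF 179.2 and at 7.61, 7.47, 7.96, 7.0 and 8.14 with vehicle. The groups were apart at both times, and the time difference of -1.35 ± 0.34 (adjusted p = 0.0316 in limma) was built from effects of 3.13 and 1.78. It passed under 9 of 16 alternatives. Ugt2b35 went the same way, with effects of 2.56 at 6 h and 1.32 at 12 h and a time difference of -1.24 ± 0.29 (adjusted p = 0.0179 in limma, passed under 13 of 16). Of the 8 genes measured on the list, 7 rose at 6 h and 6 at 12 h, beside 5.9% and 1.2% of all genes. Ugt2b5 and Ugt2b35 were the 2 called in the time difference, beside 0.848% of all genes. Of the 9 ABC efflux transporters 5 rose and 1 fell at 6 h, beside 5.9% and 3.06% of all genes. At 12 h 1 rose, beside 1.2% of all genes. Among them limma called no time difference (4 at an unadjusted p below 0.05), beside 0.848% of all genes.

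Of the genes on the list of pathway regulators, none was called at 12 h (1 of 6 at an unadjusted p below 0.05 in limma). The share of all genes called at 12 h was 1.58%. Osgin1 (chromosome 8), a growth inhibitor induced by oxidative stress, was at 9.61, 9.85 and 10.07 with DMF 179.2 at 6 h, against 8.54, 8.85 and 9.21 with vehicle. By 12 h it was at 8.61, 9.0 and 9.16 with DMF 179.2 and at 9.09, 8.83, 8.61, 8.68 and 9.28 with vehicle. The groups were apart at 6 h and overlapped at 12 h. Its effect was 0.96 ± 0.11 at 6 h and 0.05 ± 0.13 at 12 h, and the time difference was -0.91 ± 0.17 (adjusted p = 0.00291 in limma).

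Mafg (chromosome 11), a small Maf partner of NRF2 and itself a known target, lay at 9.17, 9.30 and 9.47 with DMF 179.2 and at 8.04, 8.48 and 8.65 with vehicle at 6 h. The 12 h level lay at 8.19, 8.31 and 8.35 with DMF 179.2 and at 8.34, 7.96, 7.94, 7.87 and 8.18 with vehicle. As for Osgin1, the groups were apart at 6 h and overlapped at 12 h. The effects were 0.88 and 0.24, with a time difference of -0.65 ± 0.13 (adjusted p = 0.00713 in limma). Nfe2l2, which encodes NRF2, had effects of 0.01 at 6 h and -0.06 at 12 h, and Bach1, a repressor of the same elements, 0.13 and 0.04, neither called. Of the 6 genes measured on the regulator list, 2 rose at 6 h, Osgin1 and Mafg, beside 5.9% of all genes. Both were called in the time difference, beside 0.848% of all genes. Osgin1 is also on the list of NRF2 target genes.

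**Figure D2:**
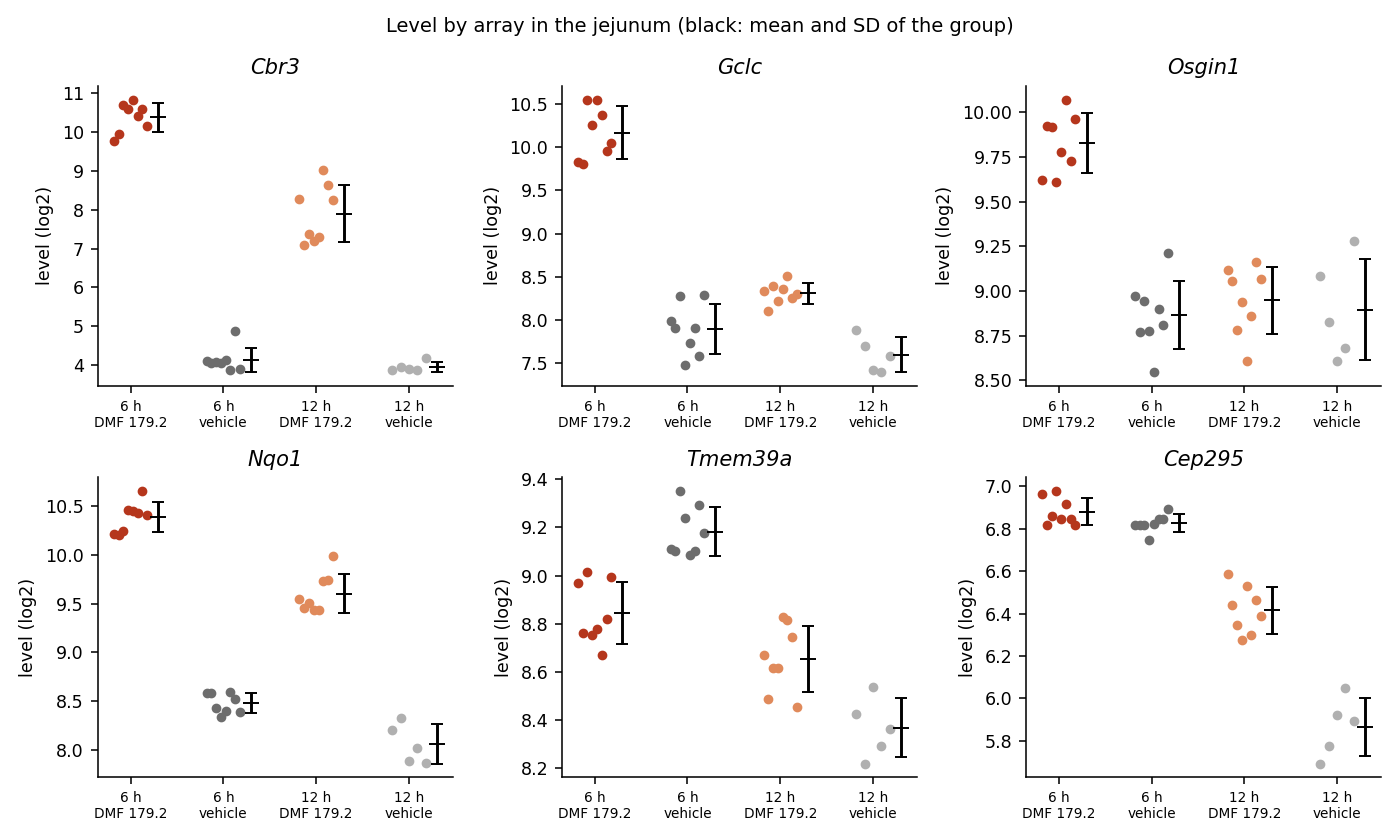
Level in log2 units of 6 genes on each jejunum array, with DMF 179.2 left of vehicle within 6 h and within 12 h. Points are arrays, and black marks are the group mean with its SD. Cbr3, Gclc and Nqo1 stand clear of vehicle at both times, Osgin1 overlaps it at 12 h, Tmem39a is below vehicle at 6 h, and Cep295 is above it at 12 h.

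Over the NRF2 target list as a whole, 20 of 23 genes measured rose at 6 h and 13 at 12 h, beside 5.9% and 1.2% of all genes. The time difference was called in 4, all negative: Cbr3, Gclc, Osgin1 and Txnrd1. That is 4 of 23, beside 0.515% of all genes called negative, and these genes are a list chosen with results of these data known. The list median was -0.34, and 21 of the 23 had an effect of smaller size at 12 h than at 6 h. Its range ran from -2.30 for Cbr3 to 0.25 for the glutathione S-transferase Gsta2.

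Txnrd1 (chromosome 10), the cytosolic thioredoxin reductase, was at 12.79, 12.88 and 12.94 with DMF 179.2 and at 12.41, 12.46 and 12.53 with vehicle at 6 h. At 12 h it was at 12.52, 12.57 and 12.63 with DMF 179.2 and at 12.45, 12.39, 12.32, 12.31 and 12.35 with vehicle. The groups were apart at both times, with little spread within each. The effects were 0.42 and 0.21, and the time difference was -0.21 ± 0.04 (adjusted p = 0.00345 in limma).

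Nqo1 (chromosome 8), the NADPH quinone reductase that is the usual marker of the pathway, was at 10.20, 10.42 and 10.66 with DMF 179.2 and at 8.33, 8.47 and 8.59 with vehicle at 6 h. Its 12 h level was at 9.43, 9.52 and 9.99 with DMF 179.2 and at 8.20, 8.33, 7.89, 8.01 and 7.86 with vehicle. All dosed arrays were above all vehicle arrays at both times. The effects were 1.91 ± 0.10 (3.76-fold) and 1.54 ± 0.11 (2.92-fold), and the time difference of -0.37 ± 0.15 was not called (adjusted p = 0.278 in limma). With naive in place of 12 h vehicle it was -0.57 and called (adjusted p = 0.0134 in limma), under 1 of 16 alternatives.

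The 4 glutathione S-transferases of the NRF2 list, which conjugate glutathione to electrophiles, were each called higher at both times. Gstm1 had effects of 2.63 at 6 h and 2.47 at 12 h, Gstm3 of 1.51 and 1.43, Gsta2 of 2.38 and 2.63, and Gstp1 of 0.41 and 0.40. None of these 4 was called in the time difference. Their values were -0.16 ± 0.40, -0.08 ± 0.28, 0.25 ± 0.44 and -0.01 ± 0.05, so all but Gstp1 have a wide error. Gsta4, of the glutathione list, had effects of 2.15 and 1.47 and an uncalled time difference of -0.67 ± 0.30 (adjusted p = 0.33 in limma). Ces1g, a carboxylesterase, was also uncalled at -0.57 ± 0.51, with effects of 3.84 and 3.27. Pgd, of the pentose phosphate pathway that supplies NADPH, had effects of 0.77 and 0.39 and missed narrowly at -0.38 ± 0.11 (adjusted p = 0.0639 in limma). Hmox1, the inducible heme oxygenase, was dim in the jejunum with a mean of 3.05 log2, and its effects of 0.50 and -0.07 were called at neither time. Srxn1, which restores oxidized peroxiredoxins, rose by 0.18 at 6 h, was at 0.12 and uncalled at 12 h, and had a time difference of -0.06 ± 0.08. Slc7a11, the cystine carrier, lay at the floor of the values (2.18 log2).

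**Figure D3:**
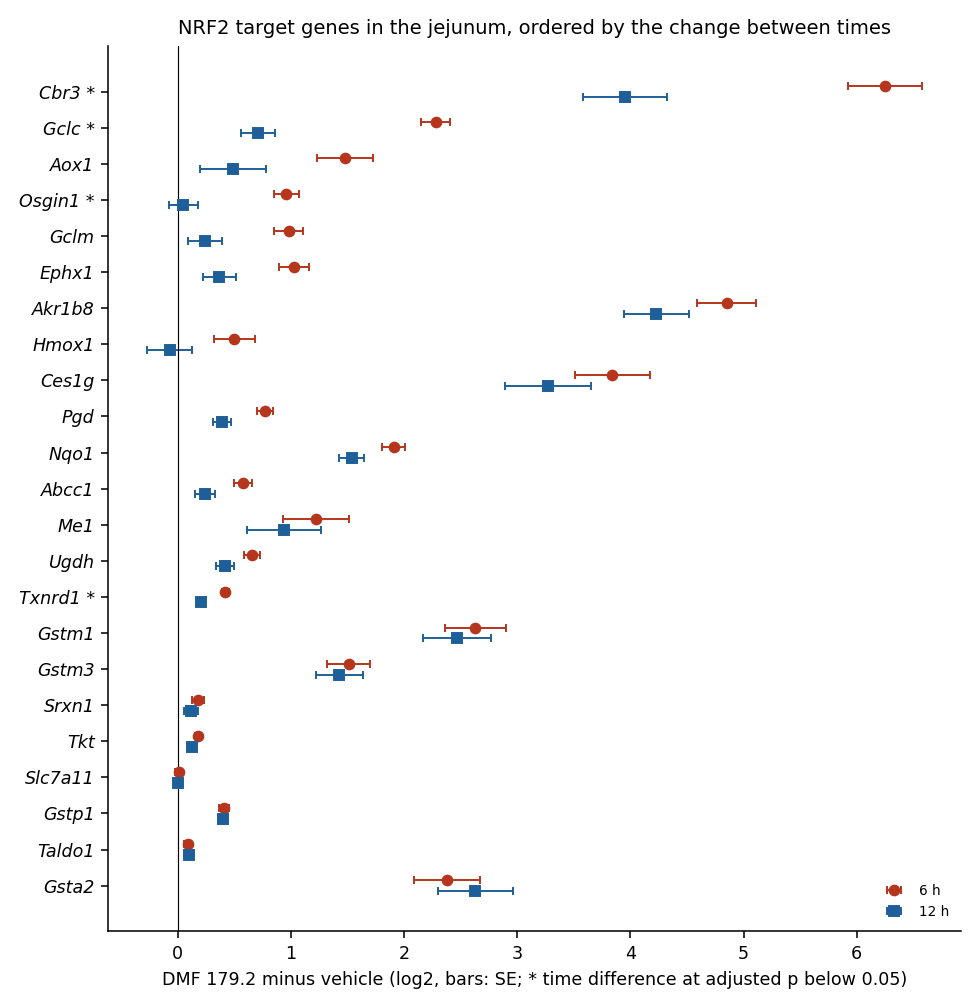
Effect of DMF 179.2 against vehicle in the jejunum (log2, bars are SE) for the 23 NRF2 target genes measured, with 6 h as red circles and 12 h as blue squares, ordered by the time difference. Genes with a called time difference carry a star. Cbr3, Gclc, Osgin1 and Txnrd1 are starred, and the squares of Gstm1, Gstm3, Gstp1 and Gsta2 lie on or near their circles.

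The other genes among the 15 most negative had time differences between -0.83 and -0.71. Slc6a9 (chromosome 4), the glycine transporter GLYT1, was at 10.50, 10.94 and 11.36 with DMF 179.2 and at 9.64, 10.10 and 10.45 with vehicle at 6 h. By 12 h it was at 9.66, 9.96 and 10.01 with DMF 179.2 and at 9.90, 9.53, 9.85, 9.87 and 10.05 with vehicle. The groups were apart at 6 h and overlapped at 12 h. Its effects were 0.88 and 0.06, with a time difference of -0.83 ± 0.18 (adjusted p = 0.0104 in limma). A second probe set of the gene, at 4.7 log2 on average, gave -0.17.

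Khnyn, an RNA-binding cofactor of the antiviral protein ZAP, rose by 0.56 at 6 h and was at -0.22 and uncalled at 12 h, with a time difference of -0.78 ± 0.15 (adjusted p = 0.00324 in limma). Its other probe set gave 0.21, of the opposite sign. Klf16, a Kruppel-like transcription factor, rose by 0.37 at 6 h and fell by 0.35 at 12 h, a time difference of -0.73 ± 0.12 (adjusted p = 0.000776 in limma). With the naive arrays in place of vehicle the 12 h effect of Klf16 was -0.19 and not called (adjusted p = 0.396 in limma), while its time difference was -0.56 and called. Lonrf1, a RING finger protein, likewise rose by 0.28 at 6 h and fell by 0.45 at 12 h (time difference -0.73 ± 0.14, adjusted p = 0.004 in limma). Vehicle against naive at 12 h gave 27 calls (0.158%), among them Lonrf1, which was 0.56 higher with vehicle (adjusted p = 0.0113 in limma), and with the naive arrays in place of the vehicle arrays its time difference was -0.17 and not called.

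Lonrf1 was at 7.03, 7.12 and 7.43 with DMF 179.2 and at 6.54, 6.91 and 7.11 with vehicle at 6 h. The 12 h level was at 6.14, 6.51 and 6.72 with DMF 179.2 and at 6.94, 7.0, 6.77, 6.88 and 7.01 with vehicle. The groups overlapped at 6 h, and at 12 h all dosed arrays were below all vehicle arrays.

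These 15 genes were taken from those with a mean level above that of the median gene. Crebrf, a negative regulator of the CREB3 stress factor, had a time difference of -0.79, Tmem140 one of -0.76, the NuRD chromatin remodeler Chd3 one of -0.71 and the G-patch protein Gpatch8 one of -0.71. Each rose at 6 h, by 0.46, 0.52, 0.46 and 0.52, and was uncalled at 12 h, at -0.33, -0.24, -0.26 and -0.19. Insig1, the endoplasmic reticulum protein that retains SREBP, rose by 0.33 at 6 h and was at -0.25 and uncalled at 12 h (time difference -0.58 ± 0.14, adjusted p = 0.0179 in limma). It was the 1 called gene of 16 on the cholesterol synthesis list, beside 0.848% of all genes. The list median was -0.22.

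Outside the naming rule, and singled out after its values were seen, Clec4d (chromosome 6), a lectin receptor of myeloid cells, was dim and raised at 6 h alone. It was at 3.27, 4.05 and 5.60 with DMF 179.2 and at 2.44, 2.53 and 2.99 with vehicle at 6 h. At 12 h it was at 2.29, 2.35 and 2.70 with DMF 179.2 and at 2.29, 2.29, 2.35, 2.29 and 3.09 with vehicle, close to the floor of 2.18 log2. The time difference was -1.62 ± 0.28 (adjusted p = 0.000776 in limma). Macrophage markers (5 measured) ran from 5.83 to 6.97 with DMF 179.2 and from 5.52 to 6.91 with vehicle at 6 h, and neutrophil markers (3 measured) from 2.53 to 2.96 and from 2.60 to 2.65. The part of either cell type in this result was not tested.

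Positive time differences were smaller, between 0.14 and 0.92, and 48 of the 57 were under 1.5-fold. The lead gene, Ccnjl (chromosome 11), a cyclin J relative, was at 6.01, 6.44 and 6.85 with DMF 179.2 and at 6.84, 7.34 and 7.38 with vehicle at 6 h. Its 12 h level was at 6.37, 6.76 and 7.09 with DMF 179.2 and at 6.64, 6.54, 6.87, 6.76 and 6.13 with vehicle. The groups overlapped narrowly at 6 h and fully at 12 h. It fell by 0.76 at 6 h and was at 0.17 at 12 h, and the time difference of 0.92 ± 0.25 was close to the threshold (adjusted p = 0.047 in limma), passing under 8 of 16 alternatives.

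Tmem39a (chromosome 16), a membrane protein of the endoplasmic reticulum, had the smallest adjusted p of the 15 most positive genes. It was at 8.67, 8.80 and 9.01 with DMF 179.2 and at 9.08, 9.14 and 9.35 with vehicle at 6 h. By 12 h it was at 8.45, 8.64 and 8.83 with DMF 179.2 and at 8.43, 8.22, 8.54, 8.29 and 8.36 with vehicle. All dosed arrays were below vehicle at 6 h, and at 12 h the groups overlapped. It fell by 0.34 at 6 h and rose by 0.29 at 12 h, a time difference of 0.62 ± 0.10 (adjusted p = 0.000358 in limma). With naive in place of vehicle the 12 h effect was 0.10 and not called (adjusted p = 0.704 in limma), while the time difference was 0.43 and called.

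Cep295 (chromosome 9), a centriole protein, was called against vehicle at 12 h and not at 6 h. It was at 6.82, 6.85 and 6.98 with DMF 179.2 and at 6.74, 6.82 and 6.89 with vehicle at 6 h. The 12 h level was at 6.27, 6.41 and 6.59 with DMF 179.2 and at 5.69, 5.78, 5.92, 6.05 and 5.90 with vehicle. The groups overlapped at 6 h and were apart at 12 h, with all dosed arrays above. At 6 h, 2 DMF 179.2 and 3 vehicle arrays hold the same value of 6.82, so an effect at that time may not show. The effects were 0.05 and 0.55, and the time difference was 0.49 ± 0.10 (adjusted p = 0.00324 in limma). The 12 h vehicle arrays were 0.31 lower than naive (adjusted p = 0.0485 in limma), and against naive neither the 12 h effect of 0.24 (adjusted p = 0.068 in limma) nor the time difference of 0.18 was called.

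Nsun3, a methyltransferase of a mitochondrial tRNA, and Pspc1, a paraspeckle protein, were uncalled at 6 h (-0.14 and -0.25) and rose at 12 h (0.61 and 0.47), with time differences of 0.75 and 0.72. Against naive the 12 h effects were 0.39 and 0.30, neither called (adjusted p = 0.133 and 0.211 in limma), and of the time differences of 0.53 and 0.56 only that of Pspc1 was called. Prdm1, the repressor Blimp-1, fell by 0.53 at 6 h and was at 0.20 at 12 h, a time difference of 0.73 ± 0.19 (adjusted p = 0.044 in limma). Nfya, the DNA-binding subunit of NF-Y, fell by 0.48 at 6 h and was at 0.00 at 12 h, a time difference of 0.48 ± 0.11 (adjusted p = 0.0179 in limma). The other time differences among the 15 most positive were those of Ccdc14, a centriolar satellite protein (0.68), Trmt61b, a mitochondrial tRNA methyltransferase (0.63), Cdkn2aipnl (0.60), the zinc finger gene Zfp608 (0.57) and Pgpep1, a peptidase (0.49). Mtx2 of the mitochondrial outer membrane, the complex I assembly factor Ndufaf1 and the zinc finger gene Zfp512 were each at 0.47. Of the 33 called genes named, 13 have several probe sets, and another probe set gave the opposite sign for Khnyn (0.21 at a mean of 8.5 log2) and Pgpep1 (-0.52 at 9.8). The other probe sets of Nsun3, Pspc1 and Nfya were dim, at means of 2.2 to 4.9 log2, and lay between -0.16 and 0.06.

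Of the 33, 24, 22, 30, 23 and 24 kept their calls without 12 h vehicle replicate 1, 2, 3, 4 and 8 in turn. Those called without any 1 of these arrays were Cbr3, Gclc, Gss, Osgin1, Mafg, Txnrd1, Slc6a9, Khnyn, Klf16, Lonrf1, Chd3, Tmem39a, Cep295, Pspc1 and Nfya.

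Over all 30 gene lists with 383 genes measured, 10 were called negative and 0 positive, beside 0.515% negative of all genes, and 72 had an unadjusted p below 0.05 in limma, beside 2006 of 17097. The calls lay in 6 lists, all of them described above. Of 84 cell type markers on 21 lists, limma called 0, beside 0.848% of all genes, with 3 at an unadjusted p below 0.05. At that share a count of 0 in 84 does not show that cell content was alike. B cell markers were uneven between the groups, as described above. Clock genes had a list median of -0.30, with 6 of 16 higher at 6 h, beside 5.9% of all genes. None of the 16 was called at 12 h (1 at an unadjusted p below 0.05 in limma), beside 1.58% of all genes. No clock gene was called in the time difference, with 4 at an unadjusted p below 0.05. Per1, the period gene that also answers to stress, had effects of 1.43 and 0.22 and a time difference of -1.21 ± 0.44 that was not called (adjusted p = 0.22 in limma). Genes that fell at 6 h, namely the splicing factor Tra2b (-1.71), the chylomicron apolipoprotein Apob (-1.28) and the glycolysis regulator Pfkfb3 (-1.10), were at -0.45, -0.83 and 0.04 at 12 h. Their time differences of 1.27 ± 0.53, 0.45 ± 0.51 and 1.13 ± 0.44 were not called. Mt1, a metallothionein, was at 0.22 ± 0.25.

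The same time difference was fitted for the other dosed groups, which share the vehicle arrays of both times with DMF 179.2. They hold fewer arrays at 6 h, with 4 for DMF 100 and 5 each for MEF salts and for DMF 100 plus MEF salts. limma called 1 gene (0.00585%) with DMF 100, 1 (0.00585%) with MEF salts and 0 (0%) with DMF 100 plus MEF salts, and 1167, 987 and 1303 had an unadjusted p below 0.05. The gene called with DMF 100 was Cbr3 (-3.42, adjusted p = 0.001 in limma), and the one called with MEF salts was Tmem39a (0.60, adjusted p = 0.0159 in limma).

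Side by side, in the order DMF 100, DMF 179.2, MEF salts, DMF 100 plus MEF salts, the time difference of Gclc was -0.79, -1.56, 0.04 and -0.66. That of Cbr3 was -3.42, -2.30, -1.0 and -1.70, and that of Osgin1 was -0.78, -0.91, -0.38 and -0.28. For these 3 genes the value with MEF salts was nearer to 0 than the values of both DMF doses. Their 6 h effects with MEF salts were also smaller, at 0.12 for Gclc, 1.47 for Cbr3 and 0.31 for Osgin1. With DMF 179.2 those 6 h effects were 2.28, 6.25 and 0.96. With MEF salts only that of Cbr3 was called at 6 h, so the time differences do not show a lasting effect of MEF salts. Crebrf was at -0.79, -0.79, -0.74 and -0.53, Klf16 at -0.33, -0.73, -0.56 and -0.51, and Tmem39a at 0.45, 0.62, 0.60 and 0.36. The vehicle arrays enter all 4 values of a gene. Differences between the dosed groups were not tested.

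**Figure D4:**
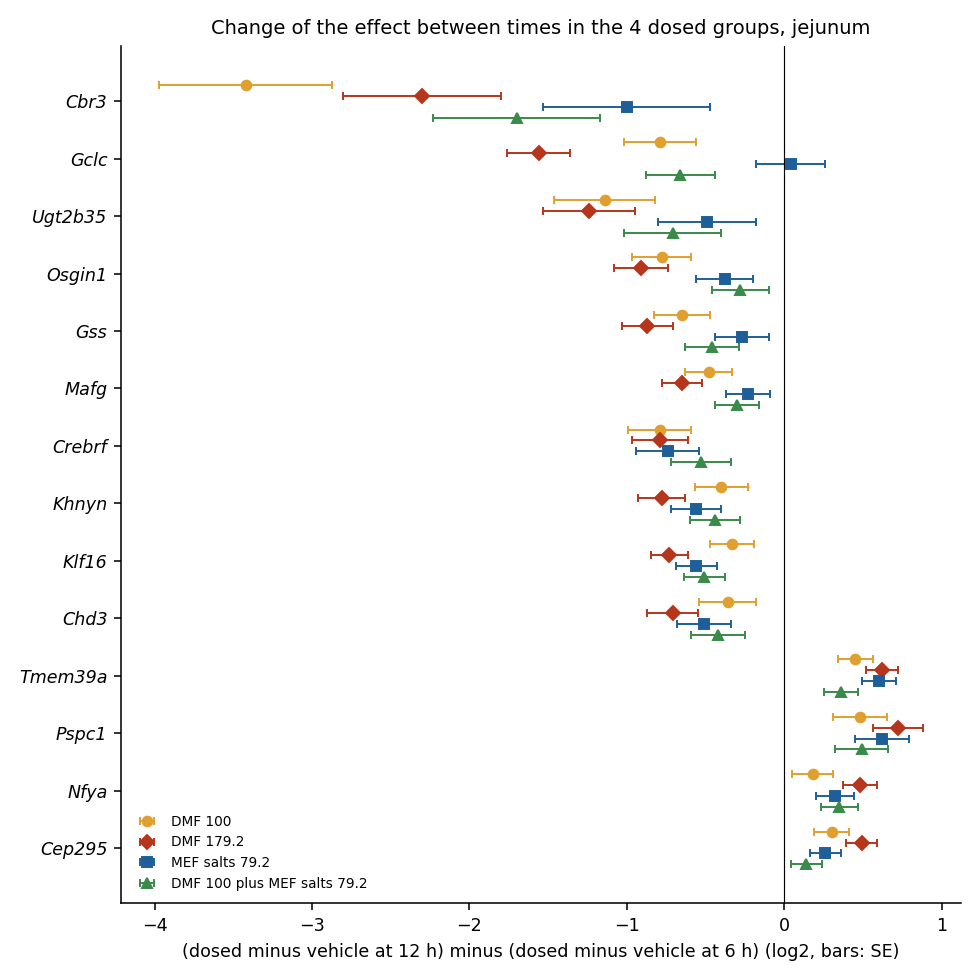
Time difference (log2, bars are SE) in the jejunum for 14 genes in the 4 dosed groups, each against the same vehicle arrays. Negative values mean a lower effect at 12 h than at 6 h. For Gclc the MEF salts value is at 0.04 and the DMF 179.2 value at -1.56, while for Crebrf the values lie between -0.79 and -0.53.

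The jejunum was then set against the kidney, with 31 kidney arrays of the same groups, in 1 fit of both organs. The difference of the time differences, jejunum minus kidney, was called in 34 genes (0.199%), 19 higher (0.111%) and 15 lower (0.0877%), and in 52 with the animal as a block, since organs of 1 animal share its number. Hmox1 and Txnrd1 had a more negative time difference in the kidney. Kidney Hmox1 was at 10.99, 11.54 and 11.99 with DMF 179.2 and at 7.13, 7.72 and 9.07 with vehicle at 6 h, and at 7.44, 7.72 and 8.22 with DMF 179.2 and at 6.53, 6.72 and 6.89 with vehicle at 12 h. Its time difference was -0.57 in the jejunum and -2.45 in the kidney, a difference of 1.88 ± 0.39 (adjusted p = 0.00568 in limma). Jejunal Hmox1 was dim, between 2.22 and 4.90 log2 on these arrays, so a change there may not show and that limit and a difference between organs cannot be told apart. Txnrd1 was at -0.21 in the jejunum and -0.63 in the kidney, a difference of 0.43 ± 0.08 (adjusted p = 0.00188 in limma). Kidney Txnrd1 at 6 h was at 12.73, 12.87 and 12.92 with DMF 179.2 and at 11.58, 11.74 and 11.78 with vehicle. In the jejunum it was at 12.79, 12.88 and 12.94 with DMF 179.2 and at 12.41, 12.46 and 12.53 with vehicle. The part of the higher jejunal vehicle level in this difference was not tested.

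For Lonrf1, Tmem140 and Cep295 the time difference was called in the jejunum and not in the kidney, where 4.38% of all genes were called. Their time differences were -0.73, -0.76 and 0.49 in the jejunum and 0.06, 0.08 and -0.20 in the kidney, and the differences between organs were -0.79 ± 0.19, -0.84 ± 0.21 and 0.70 ± 0.14 (adjusted p = 0.0287, 0.0487 and 0.00188 in limma). With naive in place of 12 h vehicle the jejunal values of Lonrf1 and Cep295 were -0.17 and 0.18 and not called. That of Tmem140 was -0.80 and called. An effect of jejunal Cep295 at 6 h may not show, since several arrays hold the same value. The difference between organs was not fitted with naive. Gclc was at -1.56 in the jejunum and -0.83 in the kidney, Osgin1 at -0.91 and -0.86, and Cbr3 at -2.30 and -1.30. None of these differed by the test (adjusted p = 0.307, 1 and 0.648 in limma), with standard errors of 0.25, 0.21 and 0.51. Ugt2b5 kept effects of 3.12 and 3.07 in the kidney, where its time difference was -0.05, beside -1.35 in the jejunum, and the difference was not called (adjusted p = 0.481 in limma).

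**Figure D5:**
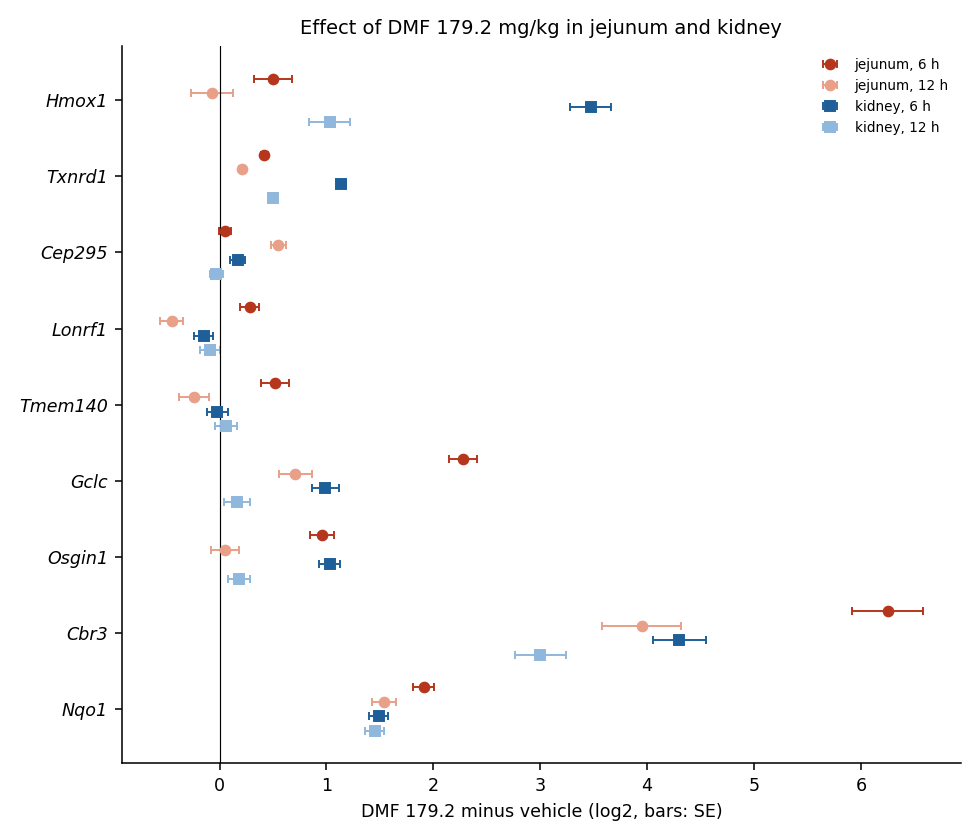
Effect of DMF 179.2 against vehicle (log2, bars are SE) for 9 genes in the jejunum (circles) and in the kidney (squares), with 6 h dark and 12 h light. Hmox1 in the kidney is at 3.47 at 6 h and 1.03 at 12 h, and Gclc and Osgin1 move toward 0 at 12 h in both organs.

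When arrays of the 4 groups with a B cell marker mean above 5 log2 were left out, 3 DMF 179.2 and 4 vehicle arrays at 6 h and 8 and 2 at 12 h remained. The time difference was then called in 44 genes, 41 negative and 3 positive, 10 of which were among the 145. All 145 kept their direction, but they were chosen by this same contrast and the arrays left are part of the same ones, so this is no separate support. Gclc and Gss kept their calls among the 33 named genes, and Cbr3 was at -1.96 and not called (adjusted p = 0.542 in limma). The 12 h effect was called in 229 genes, 79 higher and 150 lower.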

How the data were processed

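Total RNA of whole organs was hybridised to 3' expression arrays. The values the authors deposited are log2 probe set summaries. The submitters' processing notes name R 2.11.1, RMA, GCRMA and limma 3.4.5 without saying what each did. In the jejunum each time has its own floor of values (2.15 log2 at 6 h and 2.18 at 12 h). Each organ and time was taken as normalized apart, and times were compared only through their own vehicle arrays. Floors of the kidney are not given here.

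The array has 45141 probe sets, of which 104 were controls, 28898 had 1 gene, 551 several and 15588 none in the annotation used. For each of 17097 genes the probe set with the highest mean level was used. A model with 1 mean for each of 11 groups of time and treatment was fitted to 72 jejunum arrays in R 4.3.3 using limma 3.58.1 and statmod 1.5.0, with moderated variances and 61 residual degrees of freedom. Tests were 2-sided, with Benjamini-Hochberg adjustment over all genes and calls below 0.05. Errors are standard errors of the model. The number of arrays limits the precision. The kidney was fitted jointly with the jejunum. Animal numbers are unique to an animal, so 6 h and 12 h arrays are not paired. Where organs share an animal, the correlation within animals was 0.05001.

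The members and gene lists were chosen with earlier results of these data known. Named genes are the 15 most negative and 15 most positive called genes with a mean level above the median gene, up to 8 called genes per list, members that explain a count, and a set of fixed genes of interest, leaving out predicted and sex-linked genes. Genes named outside this rule are marked as such. Alternatives were all jejunum arrays, a further quantile normalization, a filter on dim genes, robust variances with a trend, the 4 groups fitted alone, the mean of all probe sets, place of the animal number as a line or a line and square, leaving out each 12 h vehicle array and naive in place of vehicle. Chosen after seeing the data were leaving out arrays with a B cell marker mean above 5 log2 and the ileum markers as a covariate.

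On simulated data for this comparison with 17097 genes and 50 changed genes per fold, the test found 30% of those at 1.25-fold, 72% at 1.5-fold, 88% at 2-fold and 94% at 4-fold, and 7 of its 149 calls were false. The changed genes were all drawn from those at or above the median level, so the rates do not cover dim genes. The noise was normal and independent between arrays. It held no shared differences in B cell markers, ileum markers or place, so the rates do not cover these either. Tables were read and plots drawn in Python 3.11.15 (matplotlib 3.10.9, numpy 2.4.6, pandas 2.3.3).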

Additional observations from a re-analysis of the deposited data

Results flagged for a closer look

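For 33 named genes the effect of DMF 179.2 differed between 12 h and 6 h by limma's test of the difference. The negative time differences were those of Cbr3 (-2.30), Gclc (-1.56), Ugt2b5 (-1.35), Akr1c19 (-1.24), Ugt2b35 (-1.24), Osgin1 (-0.91), Gss (-0.87), Slc6a9 (-0.83), Crebrf (-0.79), Khnyn (-0.78), Tmem140 (-0.76), Lonrf1 (-0.73), Klf16 (-0.73), Chd3 (-0.71), Gpatch8 (-0.71), Mafg (-0.65), Insig1 (-0.58) and Txnrd1 (-0.21). The positive ones were those of Ccnjl (0.92), Nsun3 (0.75), Prdm1 (0.73), Pspc1 (0.72), Ccdc14 (0.68), Trmt61b (0.63), Tmem39a (0.62), Cdkn2aipnl (0.60), Zfp608 (0.57), Pgpep1 (0.49), Cep295 (0.49), Nfya (0.48), Mtx2 (0.47), Ndufaf1 (0.47) and Zfp512 (0.47).

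For 5 named genes the time difference itself differed between jejunum and kidney by the same kind of test. The difference, jejunum minus kidney, was 1.88 for Hmox1, which was dim in the jejunum, 0.43 for Txnrd1, 0.70 for Cep295, -0.79 for Lonrf1 and -0.84 for Tmem140. The jejunal time differences of Cep295 and Lonrf1 were not called with naive in place of 12 h vehicle. For Cep295 an effect at 6 h may not show in the jejunum.

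Single arrays stood far from the rest of their group in 11 of 184 groups of a named gene, by Dixon's test, where chance gives about 1 in 20. At 6 h these were the DMF 179.2 array of animal 72 for Trmt61b (7.98 log2), and the vehicle arrays of animal 57 for Cbr3 (4.89), animal 51 for Hmox1 (2.79) and animal 58 for Ndufaf1 (6.96), Mt1 (12.39) and Hoxb9 (2.80). At 12 h they were the DMF 179.2 arrays of animal 21 for Ndufaf1 (7.12), animal 20 for Hmox1 (3.03) and animal 24 for Hoxb6 (2.66), and the vehicle array of animal 2 for Srxn1 (11.90) and Hoxb6 (3.10).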

How the results depend on the processing

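The 145 calls of the time difference became 539 with all jejunum arrays kept, 311 with place as a line, 431 with place as a line and square, 438 with naive in place of vehicle, 44 without the arrays high in B cell markers and 223 with the ileum markers as a covariate. Leaving out 1 vehicle array at 12 h gave 87 (without replicate 8) to 158 (without replicate 3). The 6 h effect gave 299 calls without the arrays high in B cell markers, against 1533. The 270 calls at 12 h became 1265 with all arrays kept, 104 and 110 with place as a line and as a line and square, 114 with naive in place of vehicle and 446 with the ileum markers, and 118 (without replicate 1) to 295 (without replicate 8) when 1 vehicle array was left out. With the animal number as a replicate block, the jejunum and kidney differed in 52 genes, against 34. The 12 h effect of Lonrf1 turned to 0.11 with naive in place of vehicle (adjusted p = 0.81 in limma). The causes were not tested. The 145 genes (127 where dim genes were left out) kept their direction under every alternative, except 1 gene with the mean of all probe sets and 1 with naive in place of vehicle. They were chosen by the same contrast on largely the same arrays, so a kept direction is no separate support. Of the 33 named called genes, 20 to 33 kept their calls under the alternatives other than leaving out arrays high in B cell markers, which kept 2 and leaves 2 vehicle arrays at 12 h. Probes close to the floor limit what dim genes can show.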

Other observations

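Among called genes that the naming rule left out, and singled out after their values were seen, Pir (chromosome X), which encodes the iron-binding nuclear protein pirin, resembled Cbr3 in being called higher at both times. Its levels were 8.14, 8.66 and 8.96 log2 (lowest, median and highest) with DMF 179.2 and 5.40, 5.43 and 5.73 with vehicle at 6 h. At 12 h they were 7.14, 7.47 and 7.98 with DMF 179.2, and 5.38, 5.31, 5.31, 5.32 and 5.32 on the vehicle arrays. The groups were apart at both times. Of the 8 vehicle arrays at 6 h, 5 hold the same value of 5.43, so a lower vehicle level may not show. The effects were 3.14 and 2.19, and the time difference was -0.94 ± 0.22 (adjusted p = 0.0193 in limma).

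Slc11a1 (chromosome 1), a metal ion transporter of macrophage phagosomes, was at 5.18, 5.54 and 6.41 with DMF 179.2 and at 3.24, 4.34 and 4.92 with vehicle at 6 h. At 12 h it was at 4.21, 4.80 and 5.05 with DMF 179.2 and at 4.41, 4.59, 4.64, 4.16 and 4.02 with vehicle. The groups were apart at 6 h and overlapped at 12 h. The time difference was -1.0 ± 0.26 (adjusted p = 0.0436 in limma) and passed under 8 of 15 alternatives.

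The 7 measured MHC class II genes, which present antigen on B cells, macrophages and some enterocytes, had a list median of 0.53 beside 0.00 for all genes, with no call and 0 at an unadjusted p below 0.05 in limma. The B cell markers Cd79a, Cd79b and Ms4a1 had time differences of -1.98, -1.76 and -3.56, none called.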
